A study of Chlamydomonas reinhardtii with 5 samples.

Results

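The dose step after X-irradiation was examined by setting wild-type cells of the unicellular green alga Chlamydomonas reinhardtii, strain CC-125, that received 50 Gy (XR50) directly against cells that received 6 Gy (XR6). These are 2 of the 5 RNA-Seq libraries of the series, and the other 3 come from unirradiated cells (mock) and from cells given 6 or 50 Gy of γ-rays (GR6 and GR50). The study asked how doses that stimulate or inhibit growth differ in the genotoxic stress they cause. Both X-ray samples were mid-exponential cells handled in the same way and exposed at 160 kV, for 22.2 min at 1 mA in XR6 and for 8.1 min at 10 mA in XR50. The dose was thus 8.33 times higher, and the dose rate rose from 0.270 to 6.17 Gy per min, which is 22.8 times. Dose, dose rate, tube current and exposure time cannot be told apart. The time between exposure and harvest is not given in the sources used here.

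Ionizing radiation breaks both strands of DNA, damages bases and produces reactive oxygen species from water. In eukaryotes, single-stranded DNA at a lesion is coated by replication protein A. Broken ends are held by KU proteins for direct joining. Glutathione and the enzymes that make or use it take part in the defence against the oxidative products. The mRNA levels of such genes are widely used as a readout of the DNA damage response (DDR).

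Reads counted on genes numbered 18364833 in XR6 and 19893156 in XR50, within the range of 18364833 to 20330055 over all 5 libraries. XR6 had the lowest share of reads not aligned in the series, 32.2%, against 39.5% in XR50 and up to 41.8% elsewhere, and their part in the results was not tested. Reads without a unique position made up 4.39% in XR6 and 3.02% in XR50. The 10 genes with the most reads held 12.1% and 12.4% of the gene counts, and 15889 and 15854 genes had at least 1 count. Each dose is represented by 1 library, so there is no replicate error and no test. The methods speak of 3 biological replicates, whereas a single count column for each condition was used here. The ratio of XR50 to XR6 was taken between CPM, the counts divided by library size, scaled by the trimmed mean of M-values (TMM), which sets the bulk of genes to no change. Beside each ratio stands a 95% interval computed from both counts by the exact Clopper-Pearson method. It covers counting error only, because each dose has 1 library. Copies made by PCR cannot be told from separate molecules here, so that even this error may be understated. A gene was called when it differed more than 2-fold and its interval left out no change, provided that the counts in XR6 and XR50 averaged 10 or more. "Rose" and "fell" are used for called genes only, and a call describes these libraries rather than the doses in general.

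Of 17742 genes counted, 13980 reached the minimum of 10 counts and were compared. At 50 Gy, 337 genes (2.41%) were higher and 374 genes (2.68%) were lower than at 6 Gy, so that 47.4% of the called genes were higher. A difference of less than 2-fold was found for 13183 genes (94.3%), and log2 values from the 5th to the 95th percentile ran from -0.81 to 0.76. The median log2 change of all genes was -0.0040. Scaling by library totals without TMM lowered every log2 value by 0.15, leaving 203 genes higher and 581 genes lower, so that 25.9% of the called genes were then higher. The balance of rises and falls therefore depended on the scaling.

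**Figure D1:**
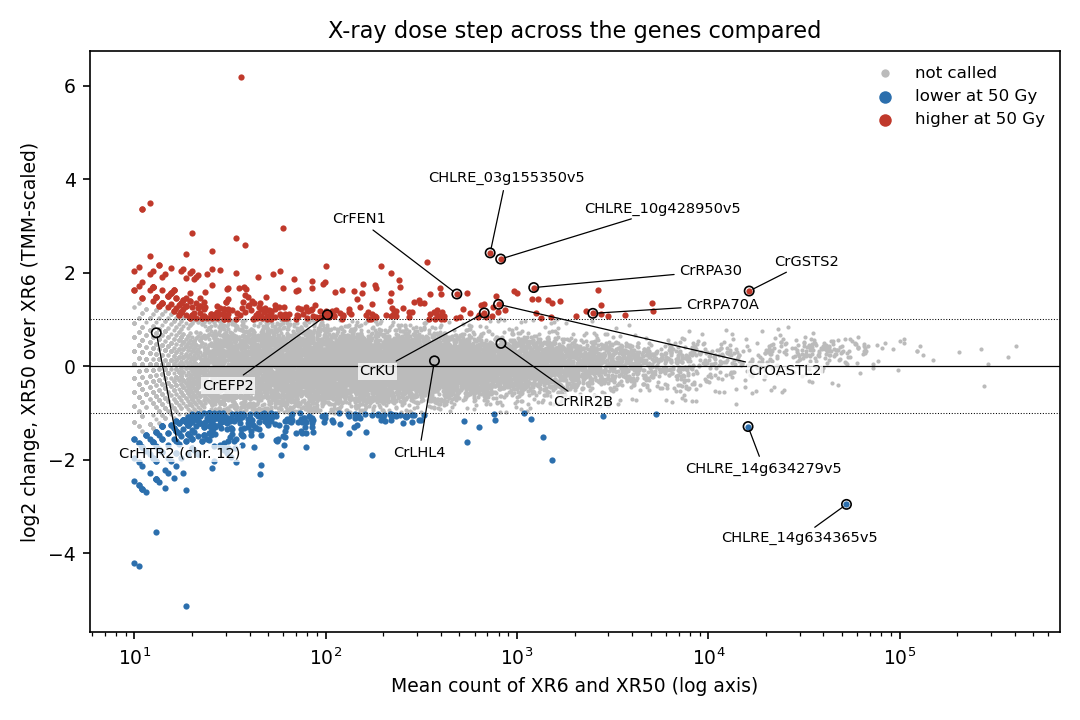
Log2 change from XR6 to XR50 (TMM-scaled, y axis) against the mean count of both libraries (log x axis) for the 13980 genes compared, with 337 higher genes in red and 374 lower genes in blue. Dotted lines mark 2-fold; circles mark the genes named beside them, among which CHLRE_14g634365v5 stands alone at high counts with a log2 change of -2.96.

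Called genes were concentrated at low counts. Higher genes had a median mean count of 47.5 and lower genes one of 29.5, against 172 for all genes compared. Among the 1592 genes with a mean of 10 to under 25 counts, 6.66% were higher and 9.67% lower. Among the 3590 genes with 250 to under 1000 counts, the shares were 1.25% and 0.418%. The lower genes thus outnumbered the higher ones at low counts, and the order was the opposite at 50 to under 5000 counts. The median log2 change moved with the count as well, from -0.09 in the lowest class to 0.18 among the 535 genes with 5000 counts or more. With library totals the median of that highest class was 0.03, and all lower classes had medians below 0, from -0.24 to -0.09. Centring the values on a smooth line through this trend, an alternative added after the data were seen, gave 387 higher and 306 lower genes. An average of 100 counts or more was reached by 8742 genes, of which 115 were called higher and 55 lower.

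**Figure D2:**
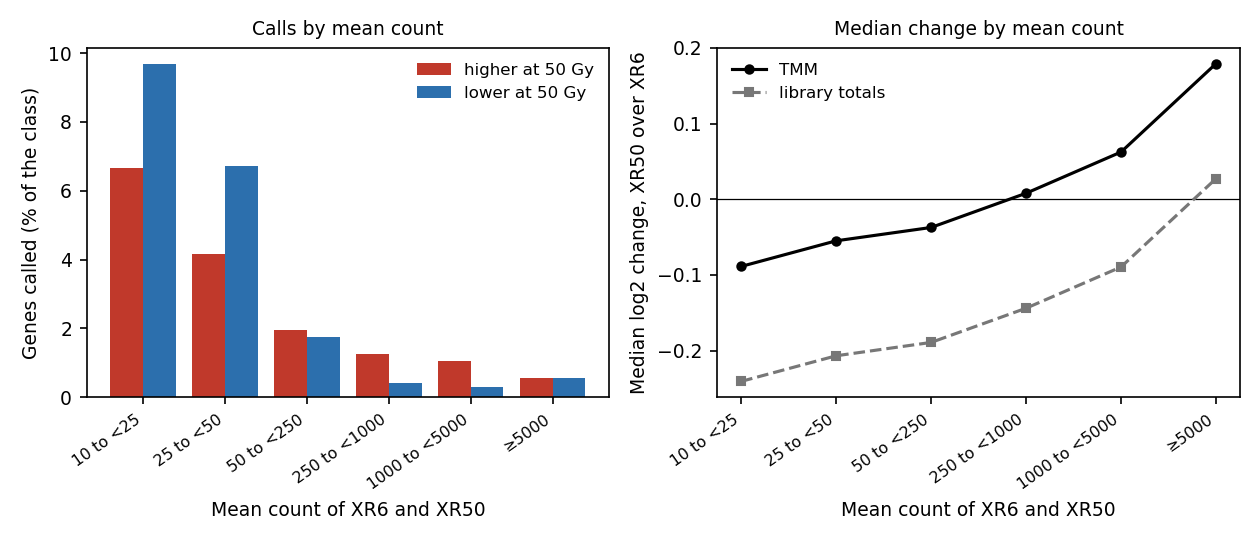
Left, the percentage of genes called higher (red) or lower (blue) at 50 Gy in 6 classes of the mean count of XR6 and XR50. Right, the median log2 change of each class with TMM (black) and with library totals (grey); the TMM medians run from -0.09 to 0.18.

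Of the open reading frames (ORFs) that the study named from these libraries, 14 are described here, and 6 of these were among those it selected as DDR genes. All 6 rose again from 6 to 50 Gy, with a median log2 change of 1.43 (2.70-fold) and a range of 1.13 to 1.68, against a median of -0.0040 for all genes, of which 2.41% were called higher. Because the 6 genes were selected for their change in the same libraries, this is a description of them and not independent evidence of direction. Together they took 0.0629% of the gene counts in XR6, 0.163% in XR50 and 0.0188% in the mock. All 6 were called under the scalings by TMM and by DESeq2 size factors, whereas with library totals 4 of 6 were called, because CrKU (log2 0.99) and CrRPA70A (log2 0.98) were just short of 2-fold.

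The single-stranded DNA binding step was represented by CrRPA30 and CrRPA70A, a pair of subunits of replication protein A. CrRPA30 (CHLRE_02g100000v5, chromosome 2, 4442875 to 4447323 in the NCBI v5.5 genome, to which all positions refer) had 592 counts in XR6 and 1853 in XR50, against 106 in the mock. Its log2 change was 1.68 (95% interval 1.55 to 1.82). CrRPA70A (CHLRE_17g718850v5, chromosome 17, 2796048 to 2801724) had 1588 counts in XR6, 3391 in XR50 and 107 in the mock, and its log2 change of 1.13 (1.04 to 1.22) was the smallest of the 6. Both genes thus ran upward from mock to XR6 to XR50, and the intervals of their dose steps did not overlap, with the larger step in CrRPA30.

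End joining and flap cutting gave steps of unequal size. CrKU (CHLRE_10g423800v5, chromosome 10, 857515 to 867610), annotated as a DNA binding protein, had 428 counts in XR6 and 920 in XR50, against 44 in the mock, and rose by a log2 of 1.14 (0.97 to 1.31). CrFEN1 (CHLRE_03g145687v5, chromosome 3, 615858 to 618689), a nuclease of the Rad2 family that in other eukaryotes trims DNA flaps in replication and repair, had 252 counts in XR6 and 717 in XR50, against 64 in the mock, a log2 change of 1.55 (1.34 to 1.76). The upper bound of CrKU lay below the lower bound of CrFEN1.

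The remaining pair of the 6 belongs to sulfur and glutathione metabolism. CrGSTS2 (CHLRE_16g682725v5, chromosome 16, 3594796 to 3597627), a glutathione S-transferase, which joins glutathione to reactive compounds, went from 3212 counts in the mock to 8231 in XR6 and 24475 in XR50. At a log2 change of 1.61 (1.57 to 1.65), or 3.05-fold, it had the narrowest interval of the 6. CrOASTL2 (CHLRE_16g664250v5, chromosome 16, 2961143 to 2963947), a cysteine synthase and thus a supplier of the amino acid from which glutathione is built, had 95, 465 and 1135 counts in mock, XR6 and XR50 and rose by a log2 of 1.32 (1.17 to 1.48). Its neighbour CHLRE_16g664301v5 starts 160 bp further on and was looked up after its values were seen. It had 30, 1750 and 2705 counts and was not called, at a log2 change of 0.66 (0.58 to 0.75). That neighbour thus stood far above the mock at 6 Gy already, and its further step was smaller than that of CrOASTL2.

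Of the other 8 ORFs, 4 reached the count minimum, 1 rose and none fell, against 2.41% and 2.68% of all genes compared. These ORFs too were selected by the study for their change in the same libraries, so this is a description of them. CrEFP2 (CHLRE_06g263050v5, chromosome 6, 1866873 to 1869495), a mitochondrial elongation factor P, had 66 counts in XR6 and 138 in XR50, against 23 in the mock, and rose by a log2 of 1.10 (0.67 to 1.55). With library totals it was not called. CrRIR2B (CHLRE_12g509400v5, chromosome 12, 2091189 to 2096175), the small subunit of the reductase that makes deoxyribonucleotides for DNA synthesis, had 228, 696 and 952 counts and a log2 change of 0.49 (0.35 to 0.63), which left out no change but stayed under 2-fold. CrLHL4 (CHLRE_17g740950v5, chromosome 17, 6033333 to 6035915), a light-harvesting-like gene induced by intense light, had 831 counts in the mock but 360 in XR6 and 380 in XR50. Its log2 change of 0.11 (-0.10 to 0.33) included no change, so that XR6 and XR50 lay together below the mock.

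The ORFs with few reads gave no usable dose step. The histone H3 gene CrHTR2 on chromosome 12 (CHLRE_12g505500v5, 2560407 to 2561162) had 10 counts in XR6 and 16 in XR50, a log2 change of 0.71 (-0.51 to 2.02). The CrHTR2 copy on chromosome 6 (CHLRE_06g275750v5, 3188156 to 3189267) had 0 and 2 counts, and reads shared between histone copies may not have been assigned to either. CrADG (CHLRE_02g082000v5, chromosome 2, 1197601 to 1203596), a DNA repair glycosylase, had 2 and 9 counts, with a log2 change of 2.21 whose interval of -0.07 to 5.46 included no change. CrZSP2 (CHLRE_14g632799v5, chromosome 14, 3869584 to 3872510), a lectin-like protein of the zygote wall and the only marker used here for a cell form other than vegetative cells, had 4 and 6 counts. CrVMPL1 (CHLRE_04g214800v5, chromosome 4, 1286309 to 1289084), an R-SNARE protein of the VAMP-like family, had 1 and 0. A difference was not detectable at this depth for any of these 5, and a count of 0 allows up to 3 counts, which is 0.151 CPM in XR6 and 0.154 CPM in XR50.

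Beyond the ORFs named by the study, neither the count tables nor the reference used here gives gene names or functions, and genes are therefore given by their identifiers without a role. The 5 rises with the interval bound farthest from no change, taken where the mean count was 50 or more, were 4.41-fold to 7.77-fold. CHLRE_13g588900v5 (chromosome 13, 3668450 to 3673911) went from 5 counts in the mock to 14 in XR6 and 106 in XR50, a log2 change of 2.96 (2.15 to 3.88). CHLRE_03g155350v5 (chromosome 3, 1927266 to 1932452) had 93, 232 and 1215 counts and a log2 change of 2.43 (2.22 to 2.63). CHLRE_10g428950v5 (chromosome 10, 1515672 to 1519913) had 52, 284 and 1358 counts and a log2 change of 2.29 (2.11 to 2.48). These 3 genes, like the rest of the 5 given below, were between the mock and XR50 in XR6, as were the 6 DDR genes. CHLRE_03g161450v5 (chromosome 3, 2714372 to 2716037) had 19, 122 and 556 counts, a log2 change of 2.22 (1.94 to 2.52). CHLRE_12g524350v5 (chromosome 12, 4801459 to 4804164) had 21, 73 and 314 counts, a log2 change of 2.14 (1.77 to 2.53). All 5 had lower bounds above that of any of the 6 DDR genes, but the 5 were chosen by that bound, so this is no separate result about them.

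The falls were led by a single abundant gene. CHLRE_14g634365v5 (chromosome 14, 4154776 to 4157697) was counted 10845 times in the mock, 93743 times in XR6 and 11762 times in XR50. XR6 was thus far above the mock, and XR50 was near it. After γ-rays the gene was above the mock as well, at 893 CPM in GR6 and 2613 CPM in GR50 against 599 CPM. From XR6 to XR50 it fell 7.77-fold, a log2 change of -2.96 (-2.99 to -2.93), and its share of the gene counts went from 0.510% to 0.0591%. CHLRE_14g634279v5 (chromosome 14, 4144686 to 4147259), which ends 7516 bp before it and was looked up after its values were seen, had 8994, 23080 and 9187 counts in the same order and a log2 change of -1.29 (-1.33 to -1.26). The same shape, with XR6 above both the mock and XR50, was thus found in both.

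Of the other 4 falls named by the same rule, CHLRE_02g097800v5 (chromosome 2, 4110306 to 4117464) had 2461 counts in XR6 against 593 in XR50 and 466 in the mock, a log2 change of -2.02 (-2.15 to -1.89). CHLRE_02g095151v5 (chromosome 2, 3654626 to 3662892) had 171, 276 and 72 counts, a log2 change of -1.90 (-2.30 to -1.52). In the first gene XR50 was near the mock, and in the second it was below it. CHLRE_07g316992v5 (chromosome 7, 620121 to 638659) had 771, 830 and 263 counts, a log2 change of -1.62 (-1.83 to -1.42). CHLRE_02g093600v5 (chromosome 2, 2716663 to 2720215) had 1303, 2028 and 694 counts, a log2 change of -1.51 (-1.64 to -1.39). In both of these last genes XR50 had the lowest level of the 5 libraries.

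**Figure D3:**
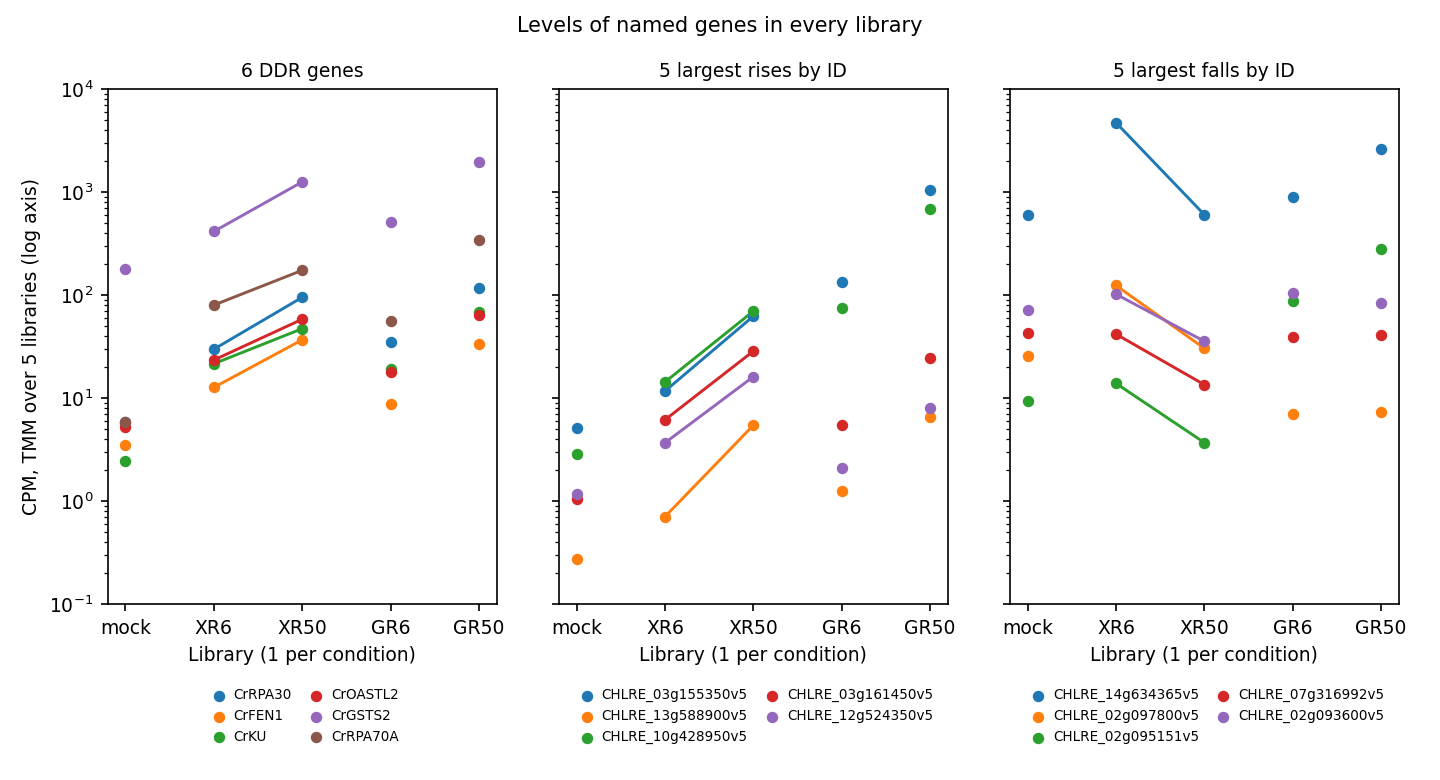
CPM (TMM over 5 libraries, log axis) in each library of the 6 DDR genes (left) and of the 5 rises (middle) and 5 falls (right) named by identifier; lines join XR6 and XR50, and 1 point is 1 library. CPM are not per length, so heights are not compared between genes; CHLRE_14g634365v5 has 4712 CPM in XR6 and 602 CPM in XR50.

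Some called genes were named only after their values were seen. In the class of 5000 counts or more, 3 genes rose, which were CrGSTS2, CHLRE_13g563100v5 (chromosome 13, 147602 to 149308) and CHLRE_16g688550v5 (chromosome 16, 3658366 to 3660578). CHLRE_13g563100v5 had 2906 counts in XR6 and 7219 in XR50, against 205 in the mock, a log2 change of 1.35 (1.29 to 1.41). CHLRE_16g688550v5 had 1668, 3203 and 7036 counts, a log2 change of 1.17 (1.11 to 1.23). Both ran upward from mock to XR6 to XR50. In the same class 3 genes fell, which were the pair on chromosome 14 described above and CHLRE_04g220850v5 (chromosome 4, 2349627 to 2357985), with 1698, 7221 and 3470 counts and a log2 change of -1.02 (-1.08 to -0.96).

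Changes of more than 8-fold were found in 4 genes each way, all with a mean under 50 counts. CHLRE_11g476325v5 (chromosome 11, 2591855 to 2606468) had 1 count in XR6 and 71 in XR50, a log2 ratio of 6.19 with an interval of 3.66 to 11.51. It had 27 counts in the mock, 1 in GR6 and 32 in GR50, so that both libraries at 6 Gy were low and the other 3 were not. CHLRE_06g268100v5 had 2 counts in XR6 and 22 in XR50, and CHLRE_04g212900v5 and CHLRE_07g343500v5 both had 2 and 20. Downward, CHLRE_16g654100v5 went from 36 counts to 1, CHLRE_11g481750v5 from 20 to 1, CHLRE_09g403000v5 from 19 to 1 and CHLRE_05g246050v5 from 24 to 2. All of these 7 ratios rest on 1 or 2 counts in the lower library.

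The mock played no part in the calls. Among the 115 higher genes that averaged 100 counts or more, the mock was below both X-ray libraries in 75.7%, between them in 22.6% and above both in 1.74%. For all 8742 genes of that depth the shares were 38.1%, 23.4% and 38.4%. The rises of that depth thus mostly ran upward from mock to XR6 to XR50. Over all 337 higher genes, most of them with fewer counts, the mock was below both in 45.1% and between in 43.0%. For all 13980 genes compared these shares were 36.7% and 25.6%. Among the 55 lower genes of at least 100 counts, the mock was between both X-ray libraries in 54.5% and below both in 38.2%, and it was nearer to XR50 than to XR6 in 67.3%, a share that was 67.5% among all genes of that depth.

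By the share of gene counts, the 337 higher genes took 0.164% in the mock, 0.315% in XR6 and 0.713% in XR50. The 374 lower genes took 0.229% in the mock, 0.906% in XR6 and 0.210% in XR50, and CHLRE_14g634365v5 alone made up 0.510% of the counts in XR6. The calls fix the order of XR6 and XR50 in both lists. In GR6 and GR50, which the calls did not use, the higher genes took 0.428% and 1.46% and the lower genes 0.400% and 0.592%. These shares follow the most abundant genes and do not describe most members of either list. Among the lower genes, CHLRE_14g634365v5 alone had 17185 counts in GR6 and 52636 in GR50. Among the higher genes, CHLRE_16g688550v5 had 16160 and 48775, and CrGSTS2 had 9925 and 39318. The median γ-ray log2 change of the 338 lower genes that could be compared was 0.12.

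The same dose step was measured after γ-irradiation in GR6 and GR50, and this step shares no library with the X-ray step. The γ-irradiated cells were exposed for 1 h at both doses without being concentrated, whereas the exposure time of the X-ray samples differed between doses. Handling, radiation type, exposure time and dose rate therefore cannot be told apart when the steps are set side by side. In GR50 over GR6, 1228 of 13980 genes (8.78%) were higher and 385 (2.75%) were lower. Among the 115 X-ray rises with at least 100 counts, 83 genes (72.2%) were also higher in GR50 than in GR6 and 0 were lower, with a median γ-ray log2 change of 1.75, whereas 7.63% of all genes of that depth were higher. Over all X-ray rises, 137 of the 313 genes that could be compared (43.8%) were higher in GR50. The X-ray falls showed another picture. Of the 55 falls with at least 100 counts, 5.45% were lower in GR50 than in GR6 and 10.9% were higher, with a median γ-ray log2 change of 0.20, against 0.881% lower and 7.63% higher among all genes of that depth. Of the 338 falls compared in all, 18 (5.33%) were lower and 34 (10.1%) were higher. The rises were therefore mostly found again after γ-rays at this depth, and the falls were mostly not.

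In the 6 DDR genes the γ-ray step had a median log2 change of 1.89 and a range of 1.75 to 2.60. The study selected its ORFs on the γ-ray libraries as well, so these steps are again a description. CrRPA30 had 670 counts in GR6 and 2353 in GR50, a log2 change of 1.75 (1.62 to 1.87), which overlapped its X-ray step of 1.68. CrRPA70A had 1080 and 6862 counts, a log2 change of 2.60 (2.51 to 2.70), well above its X-ray step of 1.13. The order of the pair was thus the opposite of that after X-rays. CrGSTS2 had 9925 and 39318 counts and a log2 change of 1.92 (1.89 to 1.95). CrKU had 365 and 1387 counts, a log2 change of 1.86 (1.69 to 2.03), and CrOASTL2 had 346 and 1300 counts, one of 1.84 (1.67 to 2.02). CrFEN1 had 167 and 678 counts, a log2 change of 1.96 (1.71 to 2.21). The intervals after X-rays and γ-rays overlapped for CrRPA30 and CrFEN1 and did not for the other 4, in all of which the γ-ray step was the larger. The difference itself was not tested, since each step rests on 1 library a side. By quantitative RT-PCR, the study reported that its selected DDR genes increased with dose and seldom differed by radiation type. CrEFP2, with 52 and 232 counts, and CrRIR2B, with 652 and 1617, were also called after γ-rays, at log2 changes of 2.09 and 1.24.

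Among the 5 rises named by identifier, all were higher in GR50 as well, at log2 changes of 1.93 to 3.19. CHLRE_03g155350v5 had 2563 counts in GR6 and 20867 in GR50, and CHLRE_10g428950v5 had 1435 and 13688, so that GR6 was above XR50 in the first gene and near it in the second. Among the 5 falls, none was lower in GR50. CHLRE_02g097800v5, with 134 and 149 counts, and CHLRE_07g316992v5, with 757 and 826, had log2 changes of 0.09 and 0.06 whose intervals included no change. CHLRE_02g093600v5 had 2012 and 1701 counts, a log2 change of -0.31 (-0.40 to -0.21), which was under 2-fold.

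**Figure D4:**
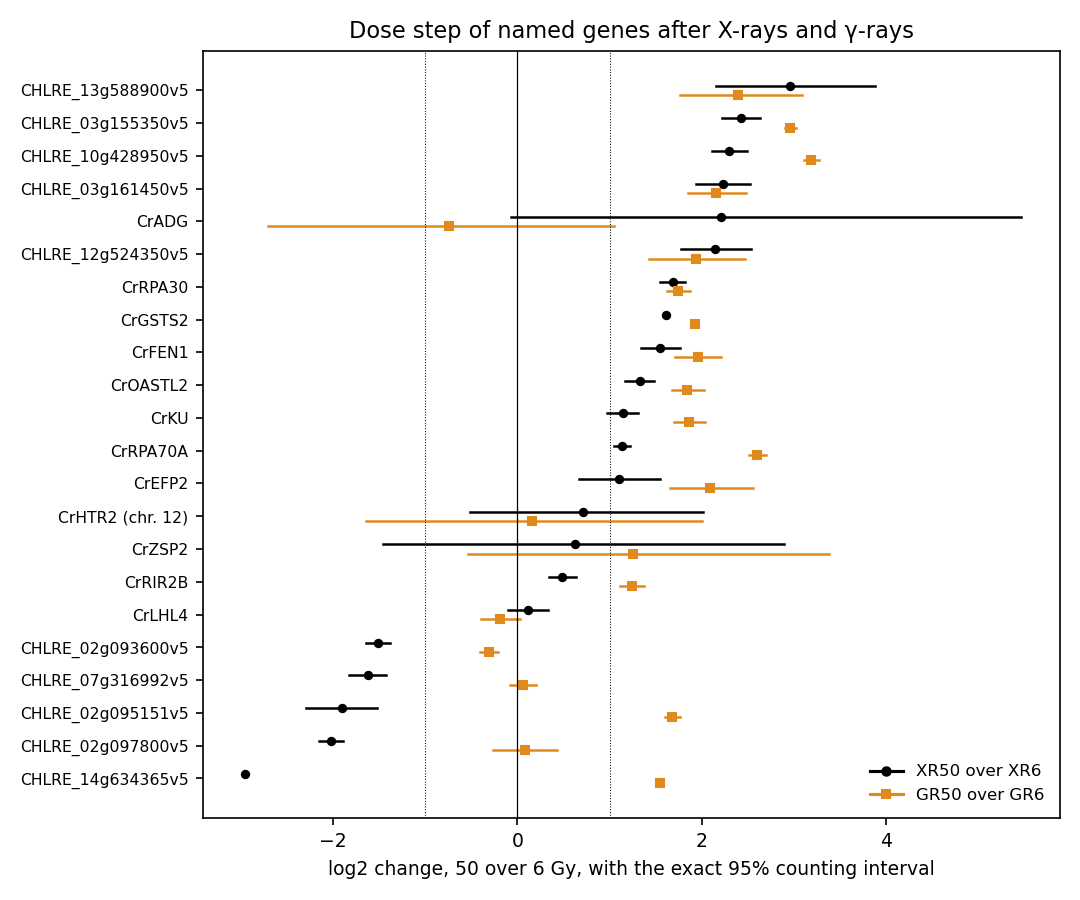
Log2 change from 6 to 50 Gy after X-rays (black circles) and γ-rays (orange squares) of the ORFs with a ratio and of the 10 genes named by identifier; bars are exact 95% counting intervals and dotted lines mark 2-fold. The rises lie to the right in both, whereas CHLRE_14g634365v5 is at -2.96 after X-rays and 1.55 after γ-rays.

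Most called genes had no adjacent gene called in the same direction, but the share that did was above that of all genes, mainly for higher genes. An adjacent gene that was also higher was found for 52 of the 337 higher genes (15.4%), against 3.76% of all genes compared that had a higher gene next to them. From 100 counts upward the shares were 20.9% and 3.65%. For lower genes they were 6.68% and 4.31% over all called, and 12.7% and 3.97% from 100 counts upward, where 7 of 55 lower genes had such a neighbour. The 27 adjacent higher pairs had a median gap of 120 bp and 0 overlapped. The median gap of all 17724 adjacent pairs was 130 bp, with 439 that overlapped. The libraries were made with a stranded kit, but the sources used here do not say whether counting used the strand, so that reads running past the end of a gene may have been counted for its neighbour, and this was not tested.

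Examples of such neighbours were looked up after their values were seen. CHLRE_03g161500v5 (chromosome 3, 2716158 to 2718624) starts 120 bp after CHLRE_03g161450v5 and had 192 counts in XR6 and 599 in XR50, against 13 in the mock, a log2 change of 1.68 (1.44 to 1.92). CHLRE_06g263100v5 (chromosome 6, 1869679 to 1873570) starts 183 bp after CrEFP2 and had 108, 415 and 1142 counts, a log2 change of 1.50 (1.33 to 1.66). CHLRE_10g423850v5 (chromosome 10, 867809 to 873042) starts 198 bp after CrKU, and its log2 change was 1.28 (0.70 to 1.88). In each of these pairs both genes rose. On chromosome 12, CHLRE_12g541050v5, CHLRE_12g541000v5 and CHLRE_12g540950v5 form a run from 9299243 to 9310218 with gaps of 84 and 54 bp. Their log2 changes were 1.05 (0.79 to 1.32), 1.56 (1.24 to 1.88) and 1.60 (1.21 to 2.01).

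Across chromosomes the share of higher genes ranged from 1.35% on chromosome 1 to 3.56% on chromosome 10. The share of lower genes ranged from 1.78% on chromosome 17 to 6.58% on chromosome 5 and 8.81% on chromosome 15, where 14 of 159 genes were lower and 0 of the 14 averaged 100 counts or more. Higher genes had a median length of 3542 bp and lower genes one of 5297 bp, against 4683.5 bp for all genes compared. The reference listed an older locus tag for 70.6% of the higher genes and 64.4% of the lower genes, against 78.6% of all. The length and tag comparisons were not matched for mean count, which had a lower median in called genes.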

How the data were processed

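RNA-Seq was performed by the authors on total RNA of C. reinhardtii with paired-end stranded libraries. Per the labels, the tools were FastQC 0.11.5, Trimmomatic 0.36, HISAT2 2.2.1, HTSeq 0.11.3 and edgeR. The values deposited by the authors are raw counts per gene for the NCBI v5.5 genome, 1 table per library, and 5 counters of unassigned reads (between 44.1% and 50.7% of the listed reads) were left out of the totals. Here TMM factors were computed with edgeR 4.0.16 in R 4.3.3 over XR6 and XR50, without a prior count, and CPM levels used TMM over all 5 libraries. With 1 library per condition no model was fitted. Named genes were 14 ORFs of the study and, from a mean of 50 counts upward, the 5 rises and 5 falls with the counting bound farthest from no change, with others marked as chosen after their values were seen. Another ORF of the study is not reported here. Members and lists were chosen with earlier results of these data known. The reference gene table matched all 17742 identifiers but holds no symbols or sequences, so none of 14 planned functional gene lists could be matched, and protein relatives and promoter motifs were not analysed here. The calculation was tested on simulated data. Alternatives were DESeq2 1.42.0 size factors, library totals, other filters, thinned counts and a lowess centring.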

Additional observations from a re-analysis of the deposited data

Results flagged for a closer look

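In 3 named genes the dose step went down after X-rays and up after γ-rays, in each case beyond counting error. The difference between the steps was not tested, since each dose and radiation type has 1 library. CHLRE_14g634365v5 had a log2 change of -2.96 (-2.99 to -2.93) from XR6 to XR50 and of 1.55 (1.52 to 1.57) from GR6 to GR50, with 17185 counts in GR6 and 52636 in GR50. CHLRE_02g095151v5 had log2 changes of -1.90 (-2.30 to -1.52) and 1.68 (1.60 to 1.76), with 1677 and 5626 counts in GR6 and GR50. CHLRE_14g634279v5, which lies near the first gene on chromosome 14, had log2 changes of -1.29 (-1.33 to -1.26) and 0.56 (0.53 to 0.59), with 12389 and 19130 counts.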

How the results depend on the processing

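When libraries were scaled by their totals alone, the counts were 203 higher and 581 lower genes, the median log2 change of all genes was -0.16, and 4 of 35 called named genes lost the call (CrEFP2, CrKU, CrRPA70A and CHLRE_12g541050v5). With a mean of at least 50 counts, 163 genes were higher and 110 lower (59.7% of called genes higher), and the 8 named genes with changes over 8-fold were not compared. With an interval wholly beyond 2-fold, 77 were higher and 25 lower (75.5%), and 5 named genes lost the call (CrEFP2, CrKU, CHLRE_10g423850v5, CHLRE_12g541050v5 and CHLRE_04g220850v5). With a 4-fold limit, 28 were higher and 36 lower, and 20 named genes lost the call, all 6 DDR genes among them. Centring on a lowess line, chosen after seeing the data, gave 387 and 306 genes (55.8%). Both counts stayed within 1.5 times of the values above with DESeq2 size factors, TMM over 5 libraries, a minimum of 1 count in both libraries, no interval, a prior count of 1 and thinned libraries, where 314 to 379 genes were higher and 338 to 426 lower. The median log2 change of the 6 DDR genes was 1.28 with library totals and stayed between 1.38 and 1.44 under 5 other alternatives. Of 246 alternative values of named genes, 0 changed sign in a called gene and 18 moved beyond their counting interval, 12 of them with library totals and 6 with the lowess line. With library totals, 84.8% of 66 higher genes with at least 100 counts were also higher after γ-rays, and 2.56% of 117 lower genes were also lower. Leaving out a library was not possible with 1 per dose, and medians of functional gene lists were not run because no list was matched. No paired analysis was possible because each condition has 1 library.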
